A study of Mus musculus with 2 samples.

Results

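The mouse miRNA array carried 9 entries for the microRNAs (miRNAs) miR-199, miR-214, miR-143, miR-145, miR-140 and miR-22, which are enriched in fibroblasts, stromal cells and cells of the cartilage lineage. They were chosen by name, as the 9 of 1881 miRNA entries whose systematic name was mmu-miR-199a-3p, mmu-miR-199a-5p, mmu-miR-199b-5p, mmu-miR-214-3p, mmu-miR-143-3p, mmu-miR-145a-5p, mmu-miR-140-3p, mmu-miR-140-5p or mmu-miR-22-3p. The rule itself uses names alone. Each of the 9 had 2 probes, so 18 probes are described.

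The RNA came from exosomes, small membrane vesicles that cells release into body fluids, in the serum of tumour-bearing mice. The mice were female C57BL/6 animals of 6 weeks. In the LLC group they were injected under the skin with 1000000 luciferase-expressing Lewis lung carcinoma (LLC) cells, a C57BL/6 lung tumour line, and in the MSC+LLC group the same LLC cells were mixed with murine BMSCs (mesenchymal stem cells from bone marrow, which are multipotent stromal cells), bought as a C57BL/6 culture. How many BMSCs were added, how many mice stood behind each array and whether their serum was pooled is not given in the sources used here. Blood was taken at a mean tumour volume of 200 mm3, and the labels call the sample serum where the study's text says plasma. RNA was extracted with Trizol, and 100 ng per sample was labelled with Cy3 and put on 1 array, so each group is 1 array on the same slide and scan. The comparison asks how the miRNA content of circulating exosomes differed when BMSCs grew with the tumour. Every host cell type could add vesicles to the serum, so the arrays do not show which cells a miRNA came from, and fewer vesicles of a kind cannot be told apart from less miRNA per vesicle.

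A miRNA is cut as a short duplex from the stem of a hairpin, and either strand, named 5p or 3p by its side of the hairpin, can be kept as the mature form. The seed, bases 2 to 8, is the stretch that pairs with target messages. Mir199a-2 and Mir214 lie in the long noncoding RNA Dnm3os, which runs opposite to Dnm3 and is transcribed in mesenchymal tissue. Other copies of the miR-199 family lie within further dynamin genes, Mir199a-1 in Dnm2 and Mir199b in Dnm1. Mir143 and Mir145a lie in the host transcript Carmn and are known from smooth muscle and other stromal cells. Mir140 lies in Wwp2 and is known from cartilage, and Mir22 lies in its own host transcript, Mir22hg, and is widely expressed, muscle and stroma included.

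The mature sequences are shown because they set what a probe can and cannot tell apart. Of the 9 names, 5 had a mature entry in the RefSeq table of build GRCm38.p6, and miR-22-5p, the other arm of miR-22, is added. Sequences read 5′ to 3′ and capitals mark the seed.
mmu-miR-199a-3p: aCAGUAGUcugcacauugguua
mmu-miR-199a-5p: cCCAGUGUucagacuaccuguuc
mmu-miR-214-3p: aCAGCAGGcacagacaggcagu
mmu-miR-140-3p: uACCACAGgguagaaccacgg
mmu-miR-22-3p: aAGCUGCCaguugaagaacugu
mmu-miR-22-5p: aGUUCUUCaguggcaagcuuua
No 2 of the 6 shared a seed. The seeds of miR-199a-3p and miR-214-3p, products of the same host transcript, matched at 5 of 7 positions. The seed of miR-214-3p was also that of miR-761, and the seed of miR-140-3p that of miR-497b, and neither of these other miRNAs was detected on either array. The mature miR-199a-3p is the product of Mir199a-1 and Mir199a-2 and has the same letters as miR-199b-3p, the product of Mir199b, so the array entry miR-199a-3p sums over 3 genes. miR-199b-3p had no entry of its own on the array. On the 5p side, miR-199a-5p, the product of Mir199a-1 and Mir199a-2, and miR-199b-5p, the product of Mir199b, had separate entries.

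The hairpins of Mir199a-2 and Mir140 are shown because the 2 arms of each are set side by side below. Capitals mark the mature arms that had an entry in the table, both arms of Mir199a-2 and the 3p arm of Mir140. On build GRCm38.p6 they lie on the + strand at chr1:162217814-162217923 and chr8:107551244-107551313.
Mir199a-2: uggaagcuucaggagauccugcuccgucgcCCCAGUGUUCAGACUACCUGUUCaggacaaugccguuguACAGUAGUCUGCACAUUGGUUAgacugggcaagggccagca
Mir140: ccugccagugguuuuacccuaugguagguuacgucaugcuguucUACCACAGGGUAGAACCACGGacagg

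The 2 arrays differed in brightness as a whole. Signal is given in intensity units, the brightness of a spot after its background was subtracted, and detection of a probe required that over 50% of the spots kept for it were marked well above background by the scanner software. At the 75th percentile of probe signal, taken over probes that both arrays detected, the MSC+LLC array was 11.52-fold dimmer, and of the 240 miRNAs with a ratio 226 had less signal on it before scaling. Labelling spike-ins, RNAs added before labelling, were at a log2 ratio of -1.32 and hybridization spike-ins, added after it, at 0.038. Neither set of spike-ins showed a gap as large as that between the arrays, a log2 shift of 3.53. For the main setting each array was divided by that 75th percentile. The scaled log2 ratio of MSC+LLC over LLC is thus relative to the other detected miRNAs of the same array, not an amount per volume of serum. With 1 array in each group no test could be made, and the SDs given below are over spots of a probe on an array, which is technical spread. A difference in relative level thus cannot be told apart from a difference between any 2 such samples.

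In LLC exosomes 7 of the 9 gave detectable signal, where 26.7% of all 1881 miRNAs did. In MSC+LLC exosomes 5 of the 9 did, where 13.7% of all did. The 5 measured on both arrays were miR-199a-3p, miR-214-3p, both arms of miR-140 and miR-22-3p. miR-199b-5p and miR-143-3p were detected in the LLC sample alone, and miR-199a-5p and miR-145a-5p in neither. Before scaling, all 9 probes with a ratio had less signal in the MSC+LLC sample, as did 226 of the 240 miRNAs with a ratio.

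**Figure D1:**
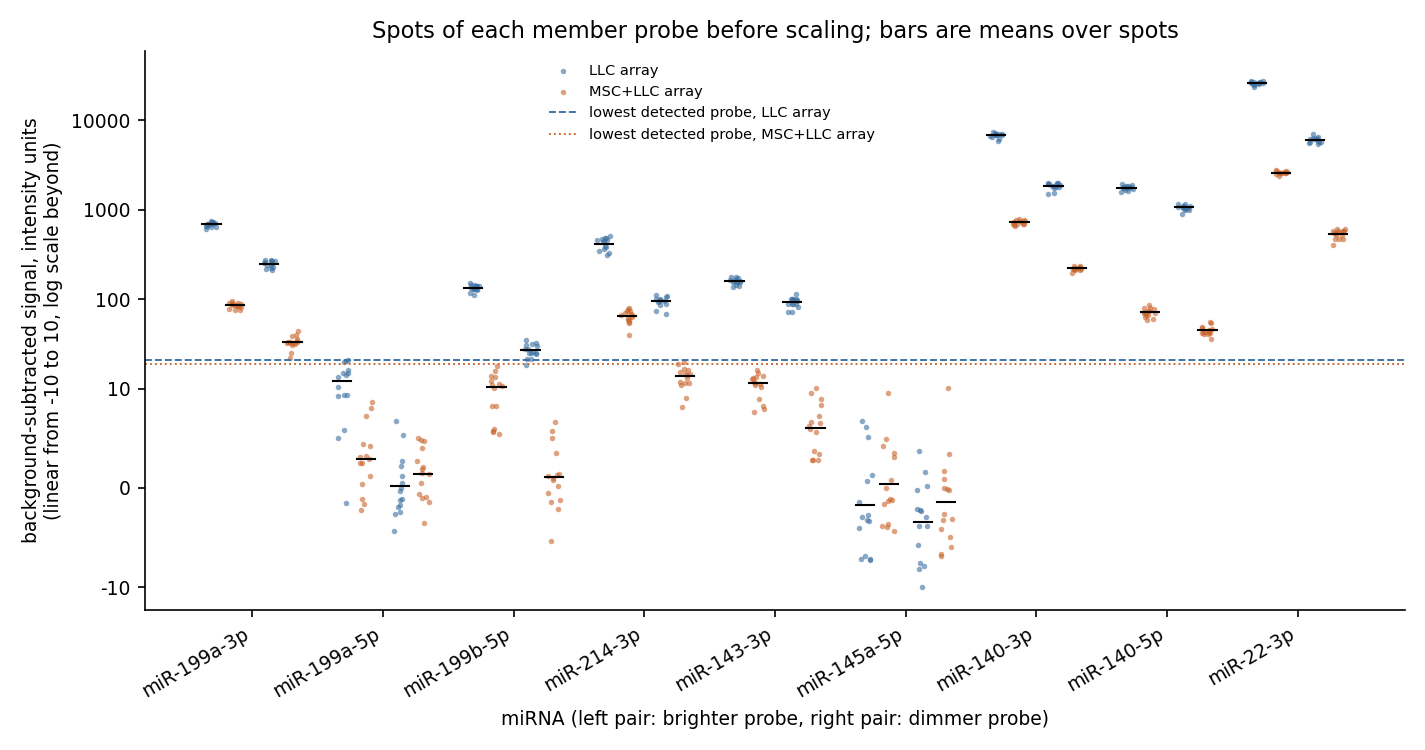
Background-subtracted signal of every kept spot (vertical axis, intensity units, linear from -10 to 10 and logarithmic beyond) for the 18 probes of the 9 miRNAs (horizontal axis), with the brighter probe of each miRNA on the left; points are spots, black bars are means over spots and the dashed and dotted lines are the lowest detected probe of each array. The spots of miR-22-3p, miR-140-3p, miR-140-5p and miR-199a-3p lie above both lines on both arrays, while those of miR-145a-5p scatter around 0.

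Among the products of the miR-199 and miR-214 genes the 3p products were measured on both arrays and the 5p products were not. Over the brighter probe of miR-199a-3p, a miRNA known from fibroblasts and fibrotic tissue, the LLC spots ran from 614 to 753 (median 693, mean 686 ± 40.7, SD, 14 spots) and the MSC+LLC spots from 75.5 to 95.0 (median 84.9, mean 85.1 ± 5.60, 15 spots). Its dimmer probe gave 248 ± 21.7 (14 spots) and 33.1 ± 5.34 (15 spots). Both probes thus placed every LLC spot above every MSC+LLC spot, by 7.77-fold on average. That was a smaller gap than the 11.52-fold between the arrays, and the scaled log2 ratio was 0.57, with the probes at 0.52 and 0.62 and a spot SD of 0.21. Once scaled, the order of the brighter probe's spots turned round, with MSC+LLC spots at 0.302 to 0.380 of the 75th percentile and LLC spots at 0.213 to 0.261, while the scaled spots of the dimmer probe overlapped. Of the 240 ratios 62.9% were lower than that of miR-199a-3p.

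Side by side, the arms of miR-199a were detected on one side of the hairpin only. The brighter probe of miR-199a-5p was at 12.2 ± 6.27 (15 spots) on the LLC array and 2.88 ± 3.32 (15 spots) on the MSC+LLC array, and its other probe at 0.196 ± 3.03 and 1.41 ± 2.58. No spot of either probe was well above background on either array, where the negative control spots were at 2.09 ± 3.82 (986 spots) and 3.70 ± 3.43 (965 spots). On the LLC array the mean of the brighter probe was above that of the negative controls, a faint signal that fell short of detection. Both miR-199a-5p probes therefore lack a ratio, and whether the 5p arm had the ratio of the 3p arm cannot be read from these arrays.

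The 5p arm of the third gene was seen in LLC exosomes. miR-199b-5p, the product of Mir199b, gave 134 ± 10.98 (15 spots, from 110.2 to 153) on its brighter probe and 26.7 ± 4.48 on the dimmer one on the LLC array, where 15 and 12 of 15 spots were well above background. The same probes were at 10.3 ± 3.87 and 1.07 ± 3.18 on the MSC+LLC array, with no spot well above background. An LLC signal of 216 would be needed for an equal relative level to reach the lowest detected probe of the dimmer array, 18.8. The brighter probe of miR-199b-5p was at 0.618 of that, so an equal relative level would have gone undetected too, and how much lower it may have been has no bound.

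miR-214-3p, which is co-transcribed with miR-199a-2 and known from fibroblasts, had the highest ratio of the 5. Its brighter probe ran from 314 to 504 (median 441, mean 419 ± 62.7, 14 spots) on the LLC array and from 40.0 to 79.2 (median 66.9, mean 64.4 ± 10.4, 15 spots) on the MSC+LLC array. The dimmer probe was at 94.0 ± 12.8 (13 spots) and 13.7 ± 3.32 (15 spots), with 1 of the 15 MSC+LLC spots well above background, so the ratio rests on 1 probe. The scaled log2 ratio was 0.82 with a spot SD of 0.32, and the scaled spots of the 2 arrays overlapped. It lay 0.26 above miR-199a-3p, with a spot SD of 0.38 for that difference. The partner arm miR-214-5p was detected in the LLC sample alone, on 1 probe at 44.5 ± 5.83, and that probe stood at 10.6 ± 4.65 in the MSC+LLC sample. Its LLC signal was under the 216 needed, so an equal relative level would have gone undetected.

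Of miR-143 and miR-145a, known from smooth muscle, miR-143-3p was detected in LLC exosomes alone and miR-145a-5p in neither sample. miR-143-3p was seen with both probes on the LLC array, at 159 ± 12.7 (14 spots, from 136 to 177) and 92.4 ± 11.2 (15 spots). On the MSC+LLC array they were at 11.54 ± 2.58 and 6.05 ± 2.52 (15 spots each), with none well above background, although the brighter one was above the mean of the negative controls. Its LLC signal was 0.733 of the 216 needed, so here too an equal relative level would have gone undetected, and a lower one has no bound. For miR-145a-5p the probes were at -1.75 ± 4.798 and -3.43 ± 3.91 on the LLC array and at 0.339 ± 3.998 and -1.47 ± 4.47 on the MSC+LLC array. These values lie within the scatter of the negative controls on both arrays, which limits detection and does not show that the miRNA was missing. The other products of these genes, miR-143-5p, miR-145a-3p and the related miR-145b, were detected on neither array.

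In the main setting the 2 arms of miR-140 stood on opposite sides of the array as a whole. miR-140-3p gave LLC spots from 5931 to 7347 (median 6924, mean 6818 ± 417, 13 spots) and MSC+LLC spots from 659.9 to 793 (median 725, mean 723 ± 38.5, 14 spots) on its brighter probe, and 1837 ± 158 (14 spots) and 219.97 ± 9.98 (13 spots) on the dimmer one. miR-140-5p gave LLC spots from 1581 to 1944 (median 1780.1, mean 1765 ± 100.5, 15 spots) and MSC+LLC spots from 57.9 to 86.7 (median 69.9, mean 71.1 ± 7.86, 15 spots), and 1059 ± 71.2 (14 spots) and 44.9 ± 5.06 (15 spots) on the dimmer probe. The 3p arm was 8.87-fold and the 5p arm 24.2-fold dimmer on the MSC+LLC array, so that the gap was smaller than the 11.52-fold between the arrays for the 3p arm and larger for the 5p arm. After scaling, the log2 ratio of miR-140-3p was 0.38 (probes 0.29 and 0.46, spot SD 0.13) and that of miR-140-5p -1.07 (probes -1.03 and -1.11, spot SD 0.18). The scaled spots of the 3p probes did not overlap between the arrays, with the MSC+LLC spots on top. Those of the 5p probes did not either, with the LLC spots on top. Probes of other miRNAs, miR-451a, miR-144-3p, miR-133a-3p and miR-126a-3p among them, kept their scaled spots apart too. The share over all probes was not counted, so this does not set miR-140 apart.

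The difference between the miR-140 arms, 3p minus 5p, was 1.45 on the log2 scale with a spot SD of 0.23, or 2.73-fold. It ran from 1.32 to 1.57 over the 4 pairings of a 3p with a 5p probe, and with normexp, another background correction, it was 0.62, under 2-fold. Any scaling that divides a whole array by 1 factor leaves it as it is, which holds for no single ratio. The brighter 3p probe had 3.86 times the signal of the brighter 5p probe on the LLC array and 10.2 times on the MSC+LLC array. Probes differ in affinity, so neither value is a ratio of amounts, and only the change between them compares the samples. With normexp the 3p arm was at 0.30 and the 5p arm at -0.32. The median of all measured miRNAs, 0.15 in the main setting, moved up by 0.69 there, so both arms lay below it.

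Arms with unlike ratios were common on these arrays. Of 13 precursor names with both arms measured on both arrays, 11 had arms at least 2-fold apart, which is 84.6%. Most of these names had an arm that rests on 1 probe, and only miR-140, miR-483 and miR-574 had at least 2 for each arm. The median size of the difference was 2.55 and the range from -2.07 to 3.74. In 9 of the 13 the 3p arm had the higher ratio, and of these 9 miR-140 had the smallest difference. The nearest in size among them was miR-7082, with 2.16 for the 3p and -0.05 for the 5p arm. Unlike arms were therefore not particular to miR-140.

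**Figure D2:**
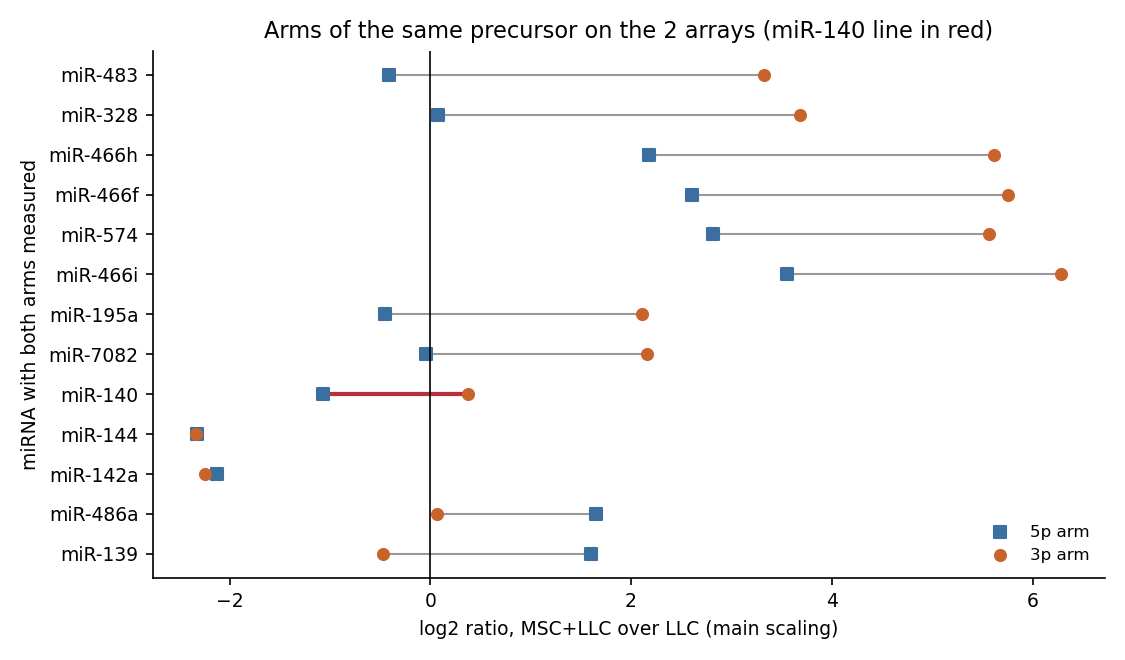
Scaled log2 ratio of MSC+LLC over LLC (horizontal axis) of the 5p arm (squares) and the 3p arm (circles) of the 13 precursor names with both arms measured on both arrays, ordered by the difference, with miR-140 joined by a red line. The miR-140 arms stand at 0.38 and -1.07, the shortest line among the 9 with the 3p arm on the right.

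miR-22-3p, a widely expressed miRNA, kept close to the array as a whole. Its brighter probe ran from 23345 to 27690 (median 26463, mean 26180 ± 1185, 14 spots) on the LLC array and from 2383 to 2756 (median 2601, mean 2603 ± 92.1, 13 spots) on the MSC+LLC array, and its dimmer probe was at 6063 ± 450.5 (13 spots) and 538 ± 60.6 (15 spots). Its unscaled log2 ratio was -3.41, close to the shift of 3.53 by which the scaling corrects. The scaled log2 ratio was 0.11, with a spot SD of 0.15, and 47.9% of the 240 miRNAs had a lower one. The partner arm miR-22-5p was detected in the LLC sample alone, at 94.9 ± 9.07 and 48.4 ± 7.61, against 3.94 and 4.39 on the MSC+LLC array. Both LLC signals were under the 216 needed, so an equal relative level would have gone undetected.

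In order of scaled ratio the 5 were miR-214-3p (0.82), miR-199a-3p (0.57), miR-140-3p (0.38), miR-22-3p (0.11) and miR-140-5p (-1.07). The spot SD is the spread of single spots and not the error of a mean, so it does not test these gaps. miR-214-3p lay 0.26 above miR-199a-3p, with a spot SD of 0.38. miR-140-3p lay 0.26 above miR-22-3p, with a spot SD of 0.20, and miR-199a-3p 0.46 above it, with a spot SD of 0.26. The widest gap, between miR-214-3p and miR-140-5p, was 1.90 with a spot SD of 0.37. The brighter probe of a miRNA kept a similar lead over the dimmer one on both arrays, with 2.76 and 2.57 for miR-199a-3p, 3.71 and 3.29 for miR-140-3p, 1.67 and 1.59 for miR-140-5p, and 4.32 and 4.84 for miR-22-3p on the LLC and the MSC+LLC array.

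None of the 5 was at least 2-fold higher in MSC+LLC exosomes, where 27.1% of the 240 miRNAs were, and 1, miR-140-5p, was at least 2-fold lower, where 11.2% were. Both counts depended on the processing. With normexp 2 were at least 2-fold higher, miR-199a-3p (1.21) and miR-214-3p (1.31), and 0 were lower, with miR-140-5p at -0.32. With every spot required above background 0 were lower as well, with miR-140-5p at -0.96, whereas unscaled or scaled to spike-ins all 5 were at least 2-fold lower. The median of all measured miRNAs moved too, by 0.69 with normexp, by -3.53 unscaled and by -2.21 to -3.56 with spike-ins. The share of all miRNAs past 2-fold was not counted under these settings, so these counts do not set the members apart. Their median log2 ratio was 0.38, beside 0.15 for all 240, whose quartiles were -0.45 and 1.18. The median lay between those quartiles, as did each ratio other than that of miR-140-5p. The sign of the ratios followed the scaling. miR-199a-3p, miR-214-3p and miR-140-3p were above 0 under 11 of 16 other settings and below 0 unscaled, with the 3 spike-in scalings and when the percentile was taken over all probes, and miR-22-3p was above 0 under 7 of the 16. miR-140-5p was below 0 under all 16, from -0.32 to -4.63.

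**Figure D3:**
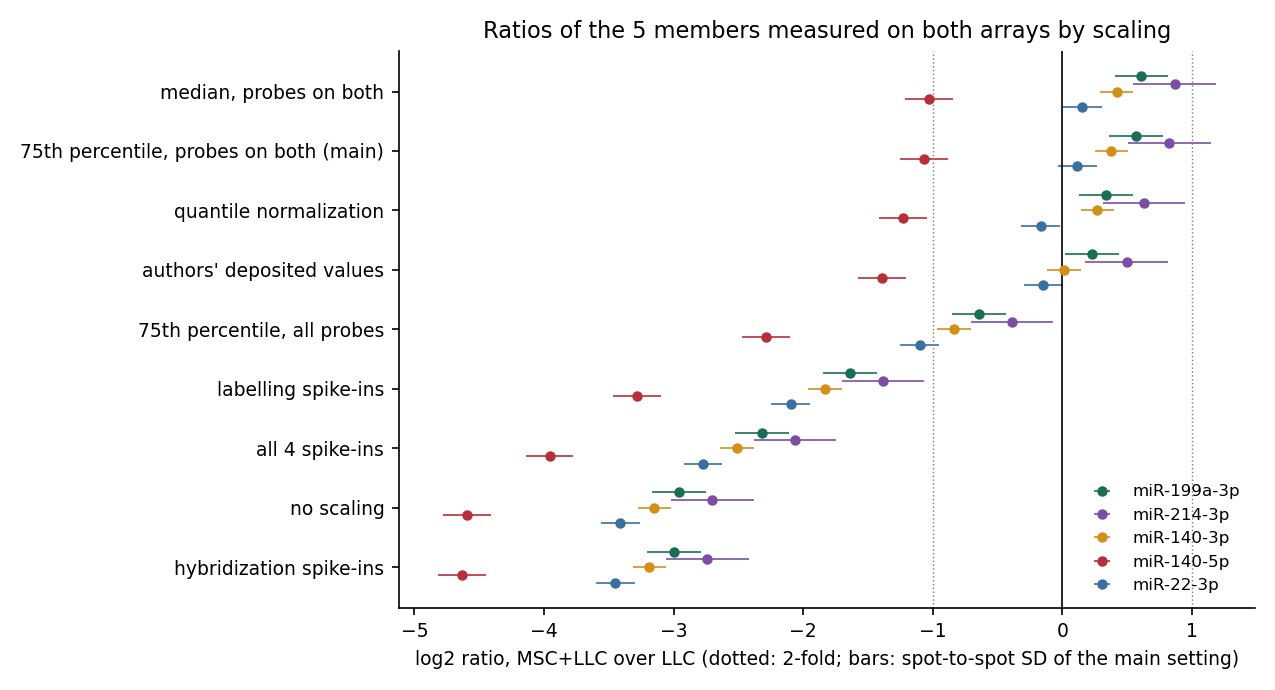
Log2 ratio of MSC+LLC over LLC (horizontal axis) of the 5 miRNAs measured on both arrays under 9 scalings (vertical axis), with dotted lines at 2-fold and bars for the spot-to-spot SD of the main setting. The whole set shifts from the right of 0 to the left as the scaling moves to the spike-ins or to none, with miR-140-5p left of 0 and left of the others in each.

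Other miRNAs of the same lineages stood on both sides of the array. Of 14 further names linked to mesenchymal cells or cartilage, 9 were detected in LLC and 6 in MSC+LLC exosomes, and the 6 had a median ratio of -0.20. None of the 6 was at least 2-fold higher and 1 was lower, miR-29b-3p (-1.06), a miRNA that targets collagen messages. The others were miR-125b-5p (0.97), miR-31-5p (0.27), miR-152-3p (0.17), miR-10b-5p (-0.56) and miR-322-5p (-0.65). Of the 6 only miR-152-3p rested on more than 1 probe. The spot SD was 0.39 for miR-31-5p, more than its ratio, and 0.32 for miR-29b-3p. The cartilage miRNAs miR-455-3p, miR-455-5p, miR-675-3p and miR-675-5p, and miR-196a-5p, were detected on neither array. miR-100-5p, miR-99a-5p and miR-218-5p were seen on the LLC array only. Their brighter probes were at 189, 192 and 61.3 there, under the 216 needed, so an equal relative level would have gone undetected too.

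Markers of other sources of serum vesicles were present beside them, and their part in the ratios above was not tested. Of 4 erythroid miRNAs all 4 were detected on both arrays. Their scaled ratios were split, with miR-144-3p and miR-144-5p at -2.33 each, miR-451a at 1.06 and miR-486a-5p at 1.66. Of 5 leukocyte and platelet miRNAs 5 and 3 were detected on the LLC and the MSC+LLC array. The 3 were split (median -2.12), with miR-142a-3p at -2.25, miR-142a-5p at -2.12 and miR-223-3p at 0.14. Of 4 hepatocyte miRNAs 3 and 2 were detected (median 0.23, from -0.32 to 0.78), and of 2 endothelial miRNAs 2 and 1 (ratio -0.51). Of 4 striated muscle miRNAs 4 and 4 were detected (median 1.12, from 0.15 to 1.28), and of 5 epithelial miRNAs 5 and 2 (median 0.99, from 0.18 to 1.80). All 5 measured members, miR-140-5p included, lay in the gap between the lower and the higher erythroid values, which does not tell their source.

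**Figure D4:**
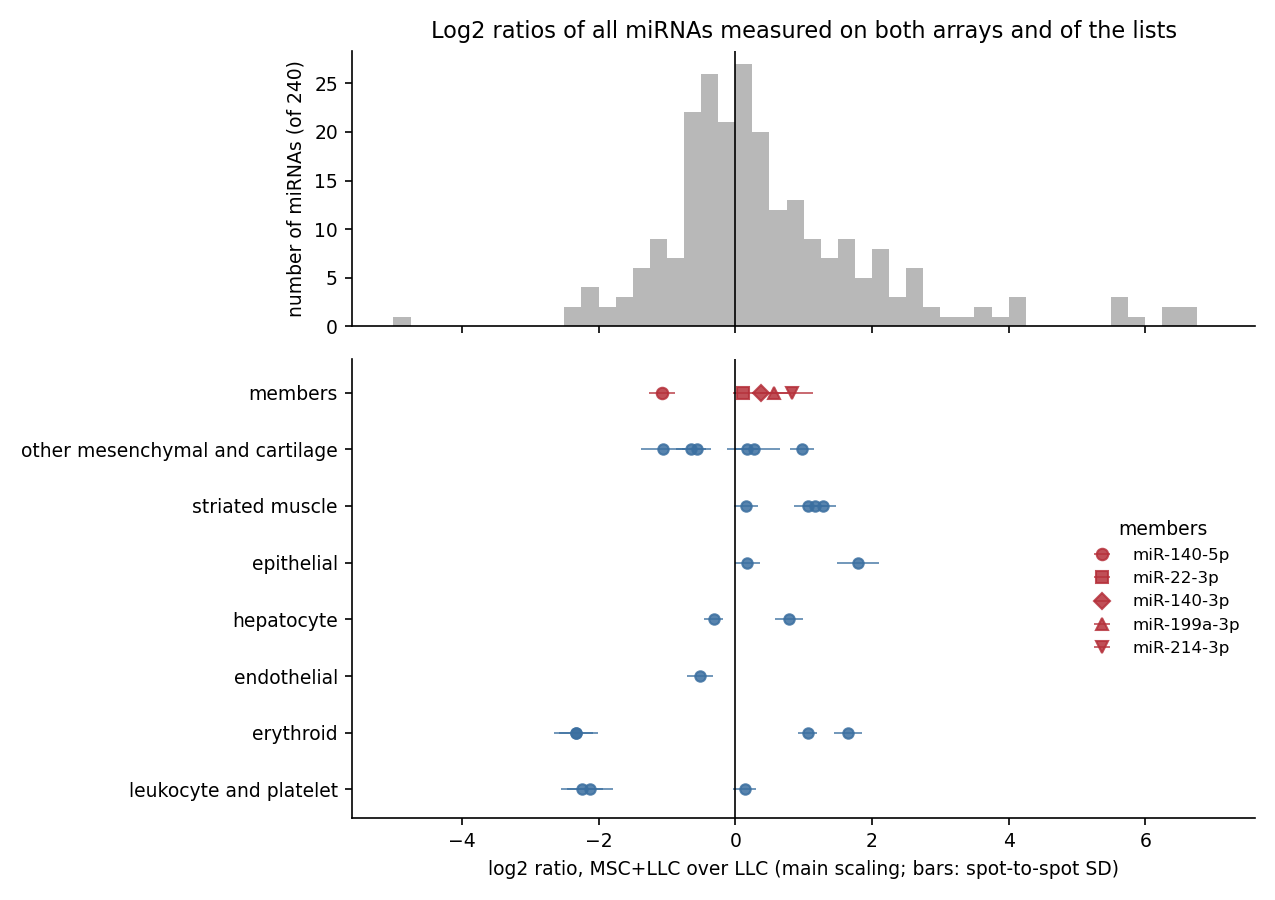
Upper panel, number of miRNAs by scaled log2 ratio of MSC+LLC over LLC among the 240 measured on both arrays; lower panel, the ratio of each measured miRNA of the named lists, with bars for the spot-to-spot SD. The 5 members (red) run from -1.07 to 0.82, with miR-140-5p below the lower quartile of -0.45 and the other 4 between the quartiles. The range of each list overlaps theirs, although no single erythroid value lies within it.

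By nearness of the ratio alone, among 142 other miRNAs with at least 2 probes measured on both arrays, miR-199a-3p was closest to miR-7235-5p (0.58) and miR-423-5p (0.60), and miR-214-3p to miR-122-5p (0.78) and miR-1249-3p (0.77). miR-140-3p was closest to miR-1892 (0.38) and miR-429-3p (0.40), and miR-22-3p to miR-2861 (0.12) and miR-680 (0.10). The nearest to miR-140-5p were miR-3102-5p (-1.07) and miR-15b-5p (-1.04). A likeness over 2 arrays is a single number and was read no further.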

How the data were processed

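The authors hybridised serum exosomal RNA of 1 LLC and 1 MSC+LLC sample to 1-colour (Cy3) Agilent mouse miRNA arrays. The deposited scanner files hold linear spot intensity, background-subtracted and not scaled between arrays. Per the file headers they came from Feature Extraction 11.5.1.1, while the submitters' processing notes give 10.7. The deposited series table holds log2 values made by the authors with GeneSpring GX and was used as an alternative.

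Control spots and outlier spots (3.04% and 2.95%) were left out, and no spot was saturated. Spots of a probe (13 to 15 for the members) were averaged, probe means were scaled within an array to the 75th percentile over probes that both arrays detected, and log2 ratios (MSC+LLC over LLC) were averaged over a miRNA's probes detected on both. No test was possible with 1 array per group, and the number of arrays limits the precision.

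All 9 members, their partner arms, the list of other mesenchymal and cartilage miRNAs and the 2 nearest ratios per member are named. Members and lists were chosen with earlier results of these data known. Alternatives were other scalings, background correction, detection rules, spot and probe summaries and fold thresholds. Functions were tested on simulated data. Python 3.11.15, numpy 2.4.6, pandas 2.3.3 and R 4.3.3 with limma 3.58.1 (normexp, offset 50) were used. Sequences are RefSeq's (GRCm38.p6).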

Additional observations from a re-analysis of the deposited data

How the results depend on the processing

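No paired analysis was possible because 1 array stood for a group, and no replicate could be left out. The median ratio of the 5 members measured on both arrays (0.38) became -0.84 when the percentile was taken over all probes, -1.83 by labelling, -3.19 by hybridization and -2.51 by all 4 spike-ins, -3.15 unscaled and 0.013 in the authors' deposited values. These scalings moved the median of all 240 miRNAs as well, by -1.21, -2.21, -3.56, -2.89, -3.53 and -0.35. The count of members at least 2-fold lower (1) became 2 with the percentile over all probes and 5 unscaled and by each spike-in scaling, and 0 with normexp background correction, with every spot required above background and at a fold of 4. The count at least 2-fold higher (0) became 2 with normexp and 1 at a fold of 1.5. Normexp moved the median of all measured miRNAs by 0.69, and the share of all miRNAs that passed was not counted under these alternatives. The detection counts stayed at 7 and 5 under the detection rules tried, except that 4 were detected on the MSC+LLC array where every probe had to be. The difference between the miR-140 arms ran from 0.62 with normexp to 1.501 with quantile normalization over 16 settings. The low signal of the MSC+LLC array limits what can be followed downward.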
